A study of Homo sapiens with 12 samples.

Results

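The translation initiation and elongation factors were followed in 2 human tumour lines after knockdown of LARP4A or LARP4B. They were taken as all genes whose listed symbol starts with EIF or EEF on chromosomes 1 to 22 or X, leaving out the EIF2AK kinases, the EIF4EBP genes, EIF1AY, hyphenated names and pseudogenes. The rule used names only and found 63 of the 28278 listed symbols. Of these genes, 60 were tested. The other 3 (EIF3C, EIF3CL and EEF1D) are listed at more than 1 position and are described without the main test.

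PC3 is a prostate adenocarcinoma line and MG63 an osteosarcoma line, and both are labelled wild type. Cells received 10 nM of non-targeting siControl, of siLARP4A or of siLARP4B by lipofection. Polyadenylated RNA was collected 72 h later. All 6 groups therefore share the transfection, and the labels do not say how many siRNA sequences were used per target. Each group has 2 libraries, 12 in all. The design text calls them biological replicates without saying what separates them, so p-values measure the spread between these libraries, which may be in part technical. Each disease is represented by 1 line grown in its own medium, so line, disease and medium cannot be told apart.

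Initiation factors join the initiator tRNA, the small ribosomal subunit and a capped mRNA, and elongation factors then deliver aminoacyl-tRNAs and move the ribosome along the message. eIF2 carries the initiator tRNA, eIF2B reloads eIF2 with GTP, eIF3 is a scaffold on the small subunit, and eIF4F (cap-binding protein, helicase and scaffold) recruits that subunit to the cap. The mRNAs of several of these factors belong, with those of ribosomal proteins, to the TOP class (5′ terminal oligopyrimidine), which starts with a C and a run of pyrimidines and is controlled through mTOR and LARP1. LARP4A and LARP4B, 2 paralogous proteins that bind RNA, associate with poly(A)-binding protein and have been linked to mRNA stability.

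The transcript start is where a TOP sequence sits, so the starts of the factors that recur below are shown first. Each line gives 30 bases on the gene's own strand, 10 before and 20 from the RefSeq start on GRCh38.p14. Capitals mark a run at the start base of C followed by at least 4 bases that are each C or T. The first 5 genes had such a run and are EEF1A1 and EEF2 (elongation), EIF4A2 (helicase), EIF3D (eIF3) and EIF2D (tRNA delivery). The last 3 genes, EIF4A1, EIF4E and EIF5A, had none. The RefSeq start was the 5′ end of the counted model for 40 of 51 matched factors, and of the genes shown it was not for EIF4E (1504 bases apart) and EIF5A (629 bases apart).
EEF1A1: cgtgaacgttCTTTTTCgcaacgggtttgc, chr6:73521013-73521042, minus strand
EEF2: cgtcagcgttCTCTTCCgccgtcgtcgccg, chr19:3985444-3985473, minus strand
EIF4A2: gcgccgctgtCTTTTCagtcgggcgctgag, chr3:186783567-186783596, plus strand
EIF3D: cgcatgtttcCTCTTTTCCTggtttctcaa, chr22:36529147-36529176, minus strand
EIF2D: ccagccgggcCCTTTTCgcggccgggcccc, chr1:206612446-206612475, minus strand
EIF4A1: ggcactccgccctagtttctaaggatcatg, chr17:7572815-7572844, plus strand
EIF4E: tggagcggttgtgcgatcagatcgatctaa, chr4:98929114-98929143, minus strand
EIF5A: tgggaacccgaccacactagcgcgctagaa, chr17:7306989-7307018, plus strand
Of the 63 factors, 51 had a promoter in the RefSeq table, and 12 of these (23.5%) had a run at the start base, against 4.04% of all 27305 promoters. The 12 are EEF1A1, EEF2, EIF2A, EIF2D, EIF2S3, EIF2S3B, EIF3D, EIF3F, EIF3K, EIF3M, EIF4A2 and EIF4B. Allowing the run to begin up to 5 bases from the start raised the shares to 37.3% of the matched factors and 21.1% of all promoters. The search read the gene's own strand only, and a start without a run says only that these letters are not at the listed base.

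The libraries held 16950119 to 24864977 fragments, and 18438 to 19204 genes had at least 1. LARP4A is listed as LARP4, which fell to 12.7% of its siControl level in PC3 and to 25.8% in MG63 with siLARP4A, and LARP4B fell to 18.4% and 30.9% with siLARP4B. LARP4 itself rose with siLARP4B in MG63 (log2 fold change 0.43 ± 0.06 (SE), edgeR adjusted p = 8.4e-06). The cytokeratins KRT8, KRT18 and KRT19 stood at 203 to 401 FPKM in PC3 and the collagens COL1A1, COL1A2, COL3A1 and COL6A3 at 379 to 1340 FPKM in MG63. RUNX2, an osteoblast regulator, was at most 0.654 FPKM in MG63, and the leukocyte markers PTPRC and CD3E at most 0.0741 FPKM anywhere. Of 6 markers of other cells, CDH5 (endothelial) stood at 1.96 to 6.47 FPKM and CD14 (monocytes) at 0.991 to 2.57 FPKM in MG63, the others were at most 0.577 FPKM, and their part in the results was not tested. The 2 libraries of PC3 siLARP4A and of MG63 siLARP4B differed most (chi-square per degree of freedom 6.28 and 5.02, against 1.63 to 2.57 in the other groups).

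With siControl, the factors spanned a wide range of FPKM, the authors' unit of fragments scaled by gene length and library depth. EEF1A1, which delivers aminoacyl-tRNA to the ribosome, stood highest in both lines, at 1654 and 1886 FPKM in PC3 and at 2672 and 2724 FPKM in MG63. Below it, 20 factors in PC3 and 19 in MG63 stood at 100 FPKM or more, 27 and 29 from 10 to 100 FPKM, 13 in each line from 1 to 10 FPKM, and 2 and 1 under 1 FPKM. The cap-binding protein gene EIF4E was low at 5.12 and 5.58 FPKM in PC3 and 3.46 and 3.49 FPKM in MG63, while its helicase partner EIF4A1 stood at 404 and 415 FPKM in PC3 and at 437 and 437 FPKM in MG63. Part of that gap is model length, by which FPKM divides, at 11805 bases for EIF4E and 1758 for EIF4A1. In fragments, the PC3 siControl libraries held 1086 and 1255 for EIF4E and 12745 and 13896 for EIF4A1. EIF4E1B, a paralogue of EIF4E known from oocytes, was listed at 0 in both PC3 siControl libraries and at 0.803 and 0.368 FPKM in MG63. Between the lines, 23 factors were higher in PC3 and 27 in MG63 by edgeR, beside 41.3% and 40.7% of all tested genes (82% together). EIF5, the GTPase activator of eIF2, stood at 106 and 108 FPKM in PC3 and at 28.7 and 29.4 FPKM in MG63. In the TMM-scaled edgeR fit EIF5 was 1.70 ± 0.05 higher in PC3 on the log2 scale. EIF3H, an eIF3 subunit, stood at 66.9 and 65.0 FPKM in PC3 and at 110.1 and 113 FPKM in MG63.

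**Figure D1:**
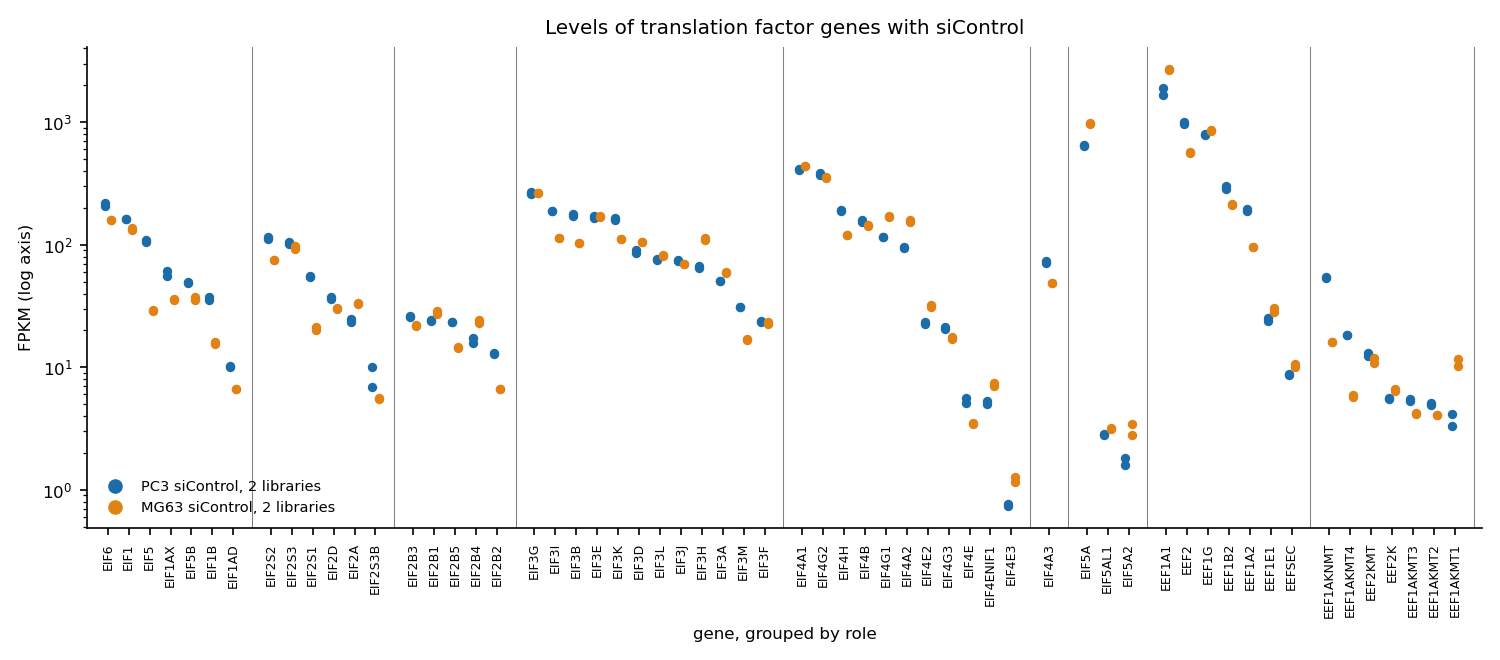
FPKM of 59 factors with siControl on a log axis, grouped by role (start codon, eIF2, eIF2B, eIF3, eIF4F, exon junction helicase, eIF5A, elongation, modifiers of elongation factors), with 1 point per library and 2 libraries per line. EEF1A1 stands highest in both lines, EIF4E3 is the lowest drawn in PC3, and EIF4E1B and the 3 factors at several loci are not drawn.

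Each siRNA was compared with siControl within its line, which asks what the loss of either protein does to the mRNA levels of the translation machinery. With siLARP4A in PC3, 6 of the 60 factors rose and 17 fell (edgeR adjusted p under 0.05), 38.3% in all, against 36.4% of the 15682 tested genes (19.5% higher and 16.9% lower). In MG63, siLARP4A gave 2 higher and 13 lower, 25% against 26.8% of all genes (13.3% and 13.5%). Without any 1 of the 4 libraries of that comparison the 15 calls became 7 or 8, and among genes averaging 5 FPKM or more they were 8 higher and 8 lower. With siLARP4B in PC3, 10 rose and 20 fell, 50% against 45.7% (24.8% and 20.9%). In MG63, siLARP4B gave 22 higher and 10 lower, 53.3% against 34.9% (18% and 16.9%). Counting both directions, the shares apart from the last were within 5 percentage points of all genes. By direction they were not: the factors lower were 28.3% and 21.7% of the 60 with siLARP4A in PC3 and MG63 and 33.3% with siLARP4B in PC3, and those higher were 36.7% with siLARP4B in MG63. The median log2 fold change of the factors and of all tested genes was -0.06 and 0.03 for siLARP4A in PC3, -0.03 and 0.00 for siLARP4A in MG63, -0.04 and 0.04 for siLARP4B in PC3, and 0.04 and 0.00 for siLARP4B in MG63. Of the values that passed, EIF5A2 in PC3 with siLARP4B was the only one beyond 2-fold. Of the 60 factors, 10 passed in none of the 4 comparisons, a count not made for all genes. With siLARP4A, 55% of the factors and 52.9% of all tested genes passed in neither line. With siLARP4B these shares were 26.7% and 39.7%. Both comparisons of a line share its 2 siControl libraries. Bulk RNA cannot tell less RNA per cell from fewer cells of a kind.

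**Figure D2:**
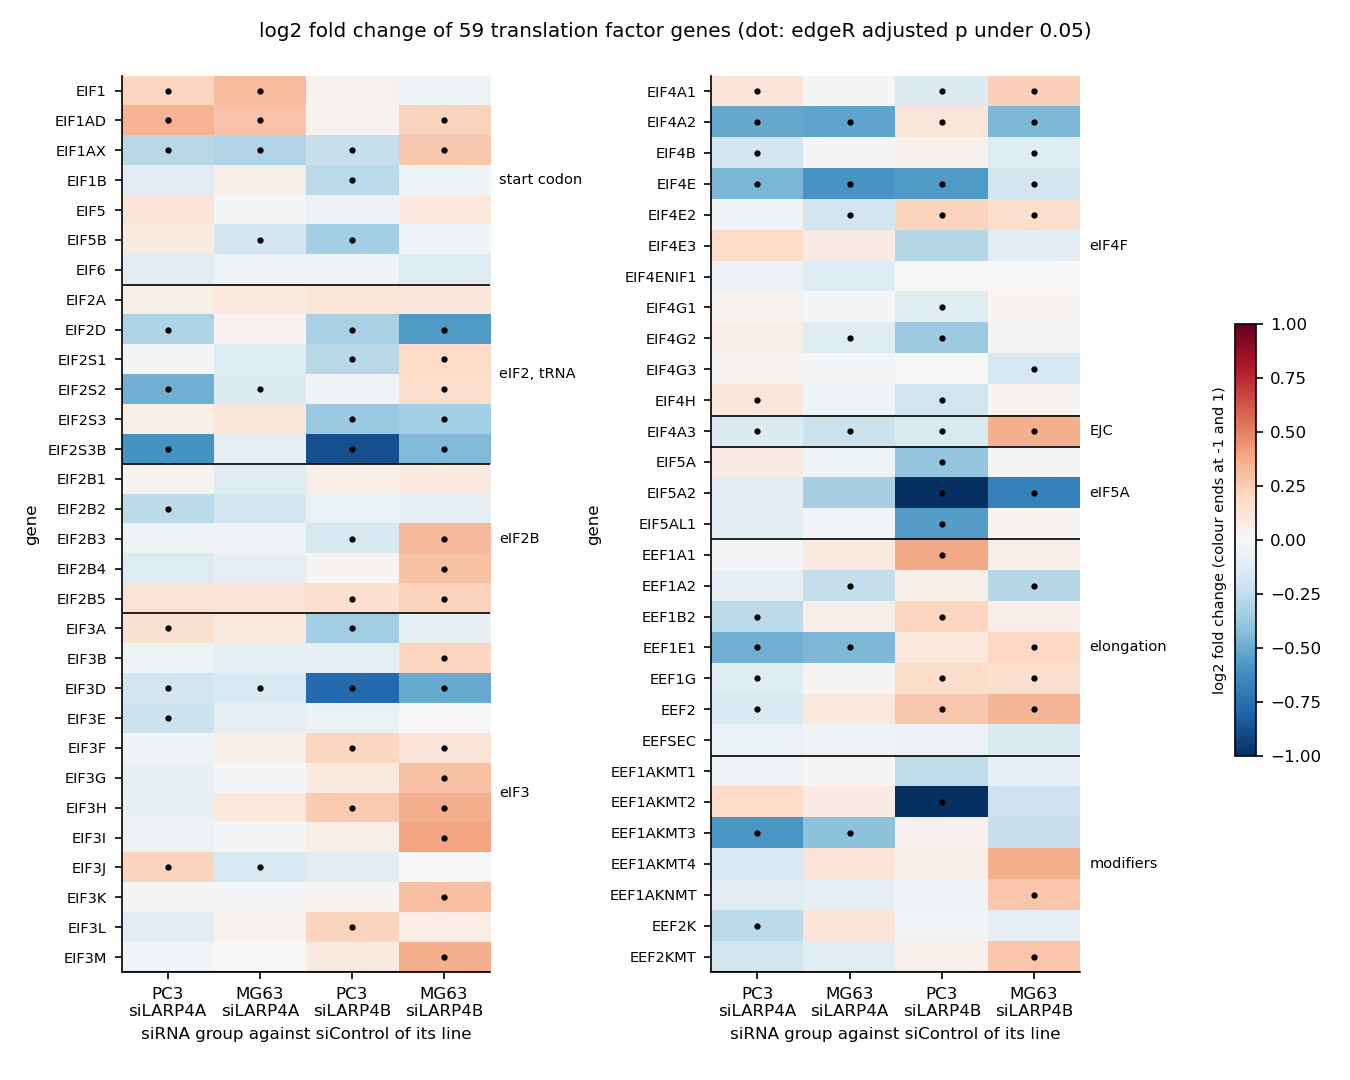
Log2 fold change of 59 factors (EIF4E1B is not drawn) for each siRNA against siControl of its line, red for higher and blue for lower, with a dot where the edgeR adjusted p is under 0.05. EIF4E is blue in all 4 columns, most eIF3 genes are red in MG63 with siLARP4B, and EIF4A2 is blue in 3 columns.

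The factors that select the start codon and join the subunits count 7 genes, of which EIF1 and EIF1AD rose and EIF1AX fell with siLARP4A in both lines. EIF1, which guards the fidelity of start codon choice, stood at 162 and 161 FPKM in PC3 siControl and at 187 and 183 FPKM with siLARP4A. The MG63 libraries were at 138 and 131 FPKM with siControl and at 167 and 168 FPKM with siLARP4A. Both siLARP4A libraries lay above both siControl libraries in each line, and the log2 fold changes were 0.22 ± 0.05 (edgeR adjusted p = 0.00062) in PC3 and 0.31 ± 0.05 (edgeR adjusted p = 1.9e-05) in MG63. In PC3, EIF5 was separated in the same way without a call. The share of all genes so separated was not counted, here or below. EIF1AD, a nuclear protein with an eIF1A-like domain, rose by 0.35 ± 0.07 and 0.28 ± 0.08 on the log2 scale. Its call in MG63 was lost without MG63 siControl replicate 2 or siLARP4A replicate 1 (0.28 each, edgeR adjusted p up to 0.06), and it lies opposite BANF1 on the other strand.

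EIF1AX, which encodes eIF1A, a factor of scanning, moved down with siLARP4A in both lines and in opposite directions with siLARP4B. In PC3 it stood at 55.8 and 60.8 FPKM with siControl, 51.1 and 43.9 FPKM with siLARP4A and 49.1 and 50.5 FPKM with siLARP4B. In MG63 the values were 35.1 and 36.0 FPKM, 28.5 and 29.3 FPKM, and 41.8 and 42.7 FPKM. With siLARP4A the log2 fold changes were -0.27 ± 0.06 in PC3 (-0.17 without siLARP4A replicate 2) and -0.30 ± 0.06 in MG63, and with siLARP4B they were -0.23 ± 0.06 and 0.27 ± 0.06. The siLARP4B effect differed between the lines by -0.50 ± 0.08 (interaction, edgeR adjusted p = 0.00013). EIF5B, the GTPase that joins the large subunit, fell with siLARP4B in PC3, from 49.4 and 48.6 FPKM to 39.5 and 38.2 FPKM (log2 -0.34 ± 0.06). EIF1B, a paralogue of EIF1, stood at 35.3 and 37.2 FPKM against 29.4 and 31.0 FPKM (-0.27 ± 0.07), a call lost without siLARP4B replicate 1 (-0.23, edgeR adjusted p = 0.063). EIF5 and EIF6, the latter a factor that keeps free large subunits apart, passed in none of the 4 comparisons.

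Among the 6 genes of initiator tRNA delivery, the alpha and gamma subunits of eIF2 fell with siLARP4B in PC3, while in MG63 the gamma subunit fell and the alpha and beta subunits rose. EIF2S1 encodes the alpha subunit, the target of the stress kinases, and stood in PC3 at 56.0 and 54.6 FPKM with siControl and 46.3 and 45.3 FPKM with siLARP4B. In MG63 it stood at 20.3 and 21.2 FPKM with siControl and 23.4 and 23.6 FPKM with siLARP4B. The log2 fold change was -0.28 ± 0.05 in PC3 (edgeR adjusted p = 7.4e-05) and, with the opposite sign, 0.20 ± 0.05 in MG63 (edgeR adjusted p = 0.0056, lost without MG63 siControl replicate 1 at 0.066). The interaction was -0.47 ± 0.07 (edgeR adjusted p = 4e-05). EIF2S2, the beta subunit, was at 115 and 112 FPKM in PC3 siControl and 81.7 and 78.8 FPKM with siLARP4A, a log2 change of -0.48 ± 0.05 (edgeR adjusted p = 3.5e-08). In MG63 its siLARP4A libraries were at 68.0 and 69.3 FPKM against 75.6 and 75.0 FPKM, a smaller log2 change of -0.13 ± 0.05 (the lines differed by -0.34 ± 0.06, edgeR adjusted p = 0.0012). That MG63 call was lost in 9 of the 13 alternatives. With siLARP4B EIF2S2 rose in MG63, to 86.0 and 81.9 FPKM (0.18 ± 0.05, edgeR adjusted p = 0.0048), a call lost without siLARP4B replicate 1 (0.14, edgeR adjusted p = 0.053).

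EIF2S3, the gamma subunit, which holds the tRNA and GTP, fell with siLARP4B in both lines. Its level went from 102 and 105 FPKM to 82.0 and 78.3 FPKM in PC3, and from 92.95 and 98.1 FPKM to 74.6 and 74.3 FPKM in MG63. The log2 fold changes of -0.37 ± 0.04 and -0.34 ± 0.04 were close to each other (interaction -0.03 ± 0.06, edgeR adjusted p = 0.81). Its retrocopy EIF2S3B also fell with siLARP4B, by 0.88 in PC3 and 0.44 in MG63 (the latter lost in 5 of 13 alternatives), and with siLARP4A in PC3 by 0.60. PC3 siControl replicate 1 of EIF2S3B was high (10.0 FPKM against 6.89 FPKM in replicate 2), and without it the PC3 changes were -0.58 with siLARP4B and -0.29 with siLARP4A (edgeR adjusted p = 0.098). EIF2S3 and EIF2S3B share 22.7% and 25.5% of their 50-base words, so their fragments are not fully separable. EIF2D, a factor that can deliver tRNA outside the eIF2 route and is known from reinitiation, stood at 37.4 and 36.3 FPKM in PC3 siControl, 29.3 and 29.6 FPKM with siLARP4A and 29.1 and 29.9 FPKM with siLARP4B. The MG63 libraries were at 30.3 and 29.8, at 30.3 and 31.4, and at 20.5 and 19.4 FPKM in the same order. EIF2D thus fell with siLARP4B in both lines (log2 -0.33 ± 0.06 and -0.57 ± 0.06) and with siLARP4A only PC3 passed (-0.31 ± 0.06 against 0.04 ± 0.06, interaction -0.34 ± 0.08, edgeR adjusted p = 0.0079). EIF2A, an alternative carrier of initiator tRNA, passed in none of the 4 comparisons.

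The eIF2B exchange factor has 5 subunits, and 3 of them rose with siLARP4B in MG63 while none fell. Among all tested genes, 18% rose and 16.9% fell in that comparison. EIF2B3 stood at 22.1 and 21.7 FPKM with MG63 siControl and at 27.3 and 27.1 FPKM with siLARP4B (log2 0.33 ± 0.06, edgeR adjusted p = 0.0003). EIF2B4 stood at 24.3 and 22.9 FPKM against 28.8 and 28.4 FPKM (0.30 ± 0.07), and EIF2B5, the catalytic subunit, at 14.7 and 14.5 FPKM against 15.9 and 17.9 FPKM (0.23 ± 0.07). Without MG63 siControl replicate 2 the calls of EIF2B4 and EIF2B5 were lost (edgeR adjusted p = 0.062 and 0.077), and without siLARP4B replicate 2 EIF2B5 was at 0.15 (edgeR adjusted p = 0.18). In PC3, EIF2B3 fell with siLARP4B by 0.16 on the log2 scale (edgeR adjusted p = 0.042, lost in 7 of 14 alternatives), and the lines differed by -0.49 ± 0.09 (edgeR adjusted p = 0.0003). With siLARP4A the only call was EIF2B2 in PC3, at 13.0 and 12.9 FPKM with siControl and 10.4 and 11 FPKM with siLARP4A (-0.26 ± 0.06). EIF2B1 passed in none.

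Of the 12 testable eIF3 subunits, 7 rose and 1 fell with siLARP4B in MG63 (66.7% called, beside 34.9% of all tested genes), and 3 rose and 2 fell in PC3 (41.7% beside 45.7%). The MG63 median was a log2 fold change of 0.17, beside 0.00 for all tested genes. EIF3I stood at 114 and 113 FPKM with MG63 siControl and at 149.8 and 145 FPKM with siLARP4B (0.39 ± 0.05, edgeR adjusted p = 9.6e-07), and EIF3M at 16.7 and 17.0 FPKM against 21.7 and 20.9 FPKM (0.35 ± 0.05). For EIF3H the values were 110.1 and 113 FPKM against 142 and 142 FPKM in MG63 (0.36 ± 0.04), and 66.9 and 65.0 FPKM against 77.0 and 81.6 FPKM in PC3 (0.26 ± 0.04). Both siLARP4B libraries of these 3 genes lay above both siControl libraries, a separation whose share over all genes was not counted. EIF3B, EIF3F, EIF3G and EIF3K also rose in MG63, by 0.13 to 0.30 on the log2 scale. The smallest of these, EIF3F, lost its call in 8 of the 13 alternatives. In PC3, EIF3L rose with siLARP4B from 74.5 and 76.3 FPKM to 88.4 and 88.4 FPKM (0.23 ± 0.04). EIF3A, the large scaffold subunit, fell there from 50.6 and 50.7 FPKM to 40.2 and 39.5 FPKM (-0.35 ± 0.05). The siLARP4B effect was lower in PC3 than in MG63 for 6 of the 12 subunits and higher for none. Among all tested genes it was lower for 14.4% and higher for 12.4%. The 6 subunits were EIF3A, EIF3B, EIF3D, EIF3I, EIF3K and EIF3M. These 6 calls held under all 17 alternatives.

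EIF3D, a subunit that can bind the cap of some mRNAs, fell in all 4 comparisons. In PC3 it stood at 90.4 and 86.1 FPKM with siControl, 74.8 and 78.1 FPKM with siLARP4A and 52.4 and 51.1 FPKM with siLARP4B. In MG63 the values were 105 and 106 FPKM, 94.3 and 95.02 FPKM, and 74.2 and 72.5 FPKM. The 3 groups did not overlap in either line and stood in the same order. With siLARP4B the log2 fold changes were -0.77 ± 0.05 (edgeR adjusted p = 3.7e-11) and -0.51 ± 0.05 (edgeR adjusted p = 4.3e-08), and these held in every alternative. With siLARP4A they were -0.19 ± 0.05 and -0.16 ± 0.05. The siLARP4A calls were lost in PC3 without siControl replicate 1 (-0.14, edgeR adjusted p = 0.076) and in MG63 without any 1 of its 4 libraries. EIF3J, a loosely bound subunit, was the only factor called in both lines with opposite directions for siLARP4A. It rose in PC3 from 74.9 and 73.2 FPKM to 87.4 and 82.8 FPKM (0.22 ± 0.05) and was 63.0 and 63.5 FPKM against 70.1 and 70.2 FPKM in MG63 (-0.15 ± 0.05, edgeR adjusted p = 0.024, lost in 6 of 13 alternatives). The lines differed by 0.37 ± 0.07 (edgeR adjusted p = 0.0009). EIF3J overlaps SPG11 on the opposite strand.

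The cap-binding complex eIF4F and its helpers count 12 genes, and the cap-binding protein gene EIF4E was lower than siControl with both siRNAs in both lines. In PC3 EIF4E stood at 5.12 and 5.58 FPKM with siControl, 4.00 and 3.67 FPKM with siLARP4A and 3.61 and 3.62 FPKM with siLARP4B. In MG63 it stood at 3.46 and 3.49 FPKM, 2.26 and 2.35 FPKM, and 2.92 and 3.11 FPKM. No siRNA library reached a siControl library of its line. With siLARP4A the log2 fold changes were -0.46 ± 0.07 (edgeR adjusted p = 8.7e-06) and -0.59 ± 0.07 (edgeR adjusted p = 2.7e-06). With siLARP4B they were -0.57 ± 0.07 (edgeR adjusted p = 3.9e-07) in PC3 and -0.19 ± 0.07 (edgeR adjusted p = 0.046) in MG63, and the last was lost in 9 of the 12 alternatives that tested it. The siLARP4B effect on EIF4E differed between the lines by -0.38 ± 0.10 (edgeR adjusted p = 0.0053). EIF4E2, a cap-binding paralogue that acts as a repressor, moved the other way with siLARP4B, from 23.5 and 22.4 FPKM to 26.9 and 26.9 FPKM in PC3 and from 30.9 and 32.5 FPKM to 35.9 and 34.7 FPKM in MG63 (0.22 ± 0.05 and 0.17 ± 0.05). Its MG63 call was lost without siControl replicate 1 (0.14, edgeR adjusted p = 0.13) or siLARP4B replicate 1 (0.15, edgeR adjusted p = 0.082), and with siLARP4A it was at -0.18 ± 0.05 there.

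The helicases EIF4A1 and EIF4A2, close paralogues that unwind the 5′ end, moved in different directions. EIF4A2 stood in PC3 at 93.3 and 95.2 FPKM with siControl, 64.6 and 65.7 FPKM with siLARP4A and 100.4 and 105 FPKM with siLARP4B. The MG63 libraries were at 153 and 158 FPKM, 108 and 108 FPKM, and 115 and 109.8 FPKM. It fell with siLARP4A by the same amount in PC3 (-0.52 ± 0.05, edgeR adjusted p = 1.9e-08) and MG63 (-0.53 ± 0.05, edgeR adjusted p = 1.4e-08), with an interaction of 0.01 ± 0.07 (edgeR adjusted p = 0.97). With siLARP4B it fell in MG63 only (-0.45 ± 0.05, edgeR adjusted p = 8.5e-08), and the PC3 value of 0.12 ± 0.05 (edgeR adjusted p = 0.041) was lost in 10 of 14 alternatives. The lines differed by 0.57 ± 0.06 (edgeR adjusted p = 1.1e-06). EIF4A2 hosts several small nucleolar RNAs and overlaps RFC4 on the opposite strand.

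EIF4A1 showed the reverse order of lines with siLARP4B. In PC3 it stood at 404 and 415 FPKM with siControl, 444 and 439 FPKM with siLARP4A and 379 and 367 FPKM with siLARP4B. In MG63 the values were 437 and 437 FPKM, 434 and 434 FPKM, and 519 and 496 FPKM. With siLARP4B it fell by 0.14 in PC3 (edgeR adjusted p = 0.0062) and rose by 0.23 ± 0.04 in MG63 (edgeR adjusted p = 6e-05), and the lines differed by -0.37 ± 0.05 (edgeR adjusted p = 2.9e-05). The PC3 call was lost without siLARP4B replicate 2 (-0.12). It was also lost with a second table deposited for siControl replicate 2, from deduplicated reads (-0.08, edgeR adjusted p = 0.36). That table replaced this 1 library only, here and below, and the other libraries were not deduplicated. The value of 0.13 with siLARP4A in PC3 lost its call without siControl replicate 1 (0.12, edgeR adjusted p = 0.083) or siLARP4A replicate 1 (0.11, edgeR adjusted p = 0.05), and in 4 of 14 alternatives in all, with edgeR adjusted p up to 0.163. In the GENCODE transcripts, a reference annotation, all 50-base words of EIF4A1 are shared with other genes, 91.7% of them with AC016876.2. That gene is not among the listed models that overlap EIF4A1. A listed read-through gene of its locus, SENP3-EIF4A1, does cover it, so fragments of the overlap cannot be told apart.

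The scaffold EIF4G1 moved little, with 116 and 115 FPKM in PC3 siControl and 107 and 105 FPKM with siLARP4B (-0.12 ± 0.04, edgeR adjusted p = 0.016), and 168 and 172 FPKM against 171 and 169.7 FPKM in MG63 (0.02 ± 0.04). The PC3 call was lost without siControl replicate 1 or siLARP4B replicate 2 (-0.11 each, edgeR adjusted p up to 0.091) and with the deduplicated table (-0.14, edgeR adjusted p = 0.087). EIF4G2, a scaffold without a site for the cap-binding protein, fell with siLARP4B in PC3 from 382 and 374 FPKM to 297 and 294 FPKM (-0.36 ± 0.04, edgeR adjusted p = 3.9e-07) and was at 0.01 ± 0.04 in MG63 (interaction -0.37 ± 0.06, edgeR adjusted p = 8.3e-05). EIF4H, a helper of the helicase, fell with siLARP4B in PC3 from 191 and 188 FPKM to 168 and 167 FPKM (-0.18 ± 0.04). EIF4ENIF1, which carries EIF4E into the nucleus, passed in none of the 4 comparisons, nor did EIF4E3. EIF4G3, a paralogue of EIF4G1, was at -0.18 ± 0.06 in MG63 with siLARP4B, lost without siLARP4B replicate 1 (-0.11) or siControl replicate 2 (-0.14). EIF4E1B had at most 0.0296 FPKM in PC3 and 0.368 to 1.049 FPKM in MG63 and passed in none.

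EIF4A3 is a related helicase that belongs to the exon junction complex and not to eIF4F. In PC3 it stood at 74.0 and 71.5 FPKM with siControl, 62.6 and 68.5 FPKM with siLARP4A and 65.7 and 66.0 FPKM with siLARP4B. In MG63 it stood at 48.8 and 49.0 FPKM, 42.1 and 42.1 FPKM, and 61.2 and 62.7 FPKM. Both siRNAs gave small decreases in PC3 (-0.13 ± 0.05 and -0.15 ± 0.05), while MG63 showed a decrease with siLARP4A (-0.22 ± 0.05) and an increase with siLARP4B (0.36 ± 0.05, edgeR adjusted p = 1.2e-05). The siLARP4B effect differed between the lines by -0.51 ± 0.07 (edgeR adjusted p = 2e-05). Both PC3 calls were lost without siControl replicate 1 (-0.10 with siLARP4A and -0.12 with siLARP4B, edgeR adjusted p = 0.27 and 0.15). The siLARP4A value was -0.07 without siLARP4A replicate 1, and the siLARP4B call was also lost without either siLARP4B library.

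The eIF5A group holds the proteins that carry hypusine, an amino acid made only on them, and that help ribosomes through difficult peptide bonds. All 3 fell with siLARP4B in PC3, and 1 of 3 fell in MG63, beside 20.9% and 16.9% of all tested genes. EIF5A stood at 643 and 649 FPKM with PC3 siControl, 653 and 699 FPKM with siLARP4A and 508 and 481 FPKM with siLARP4B. The MG63 libraries were at 964 and 992 FPKM, 909 and 979 FPKM, and 958 and 944 FPKM. The PC3 change with siLARP4B was -0.39 ± 0.04 (edgeR adjusted p = 2.8e-07) and the MG63 value -0.02 ± 0.04 (edgeR adjusted p = 0.74). The interaction of -0.37 ± 0.06 (edgeR adjusted p = 0.00016) was -0.27 (edgeR adjusted p = 0.12) with the deduplicated table. EIF5A2, a low paralogue, fell in both lines with siLARP4B. Its level went from 1.58 and 1.83 FPKM to 0.736 and 0.896 FPKM in PC3 and from 3.42 and 2.78 FPKM to 1.86 and 1.97 FPKM in MG63. The log2 fold changes were -1.08 ± 0.17 (edgeR adjusted p = 1.6e-05) and -0.67 ± 0.13 (edgeR adjusted p = 0.00032). On the log2(FPKM + 1) scale the PC3 value was -0.58. EIF5AL1, a retrocopy, fell by 0.55 in PC3, and 36% of the 50-base words of EIF5A are found in it.

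**Figure D3:**
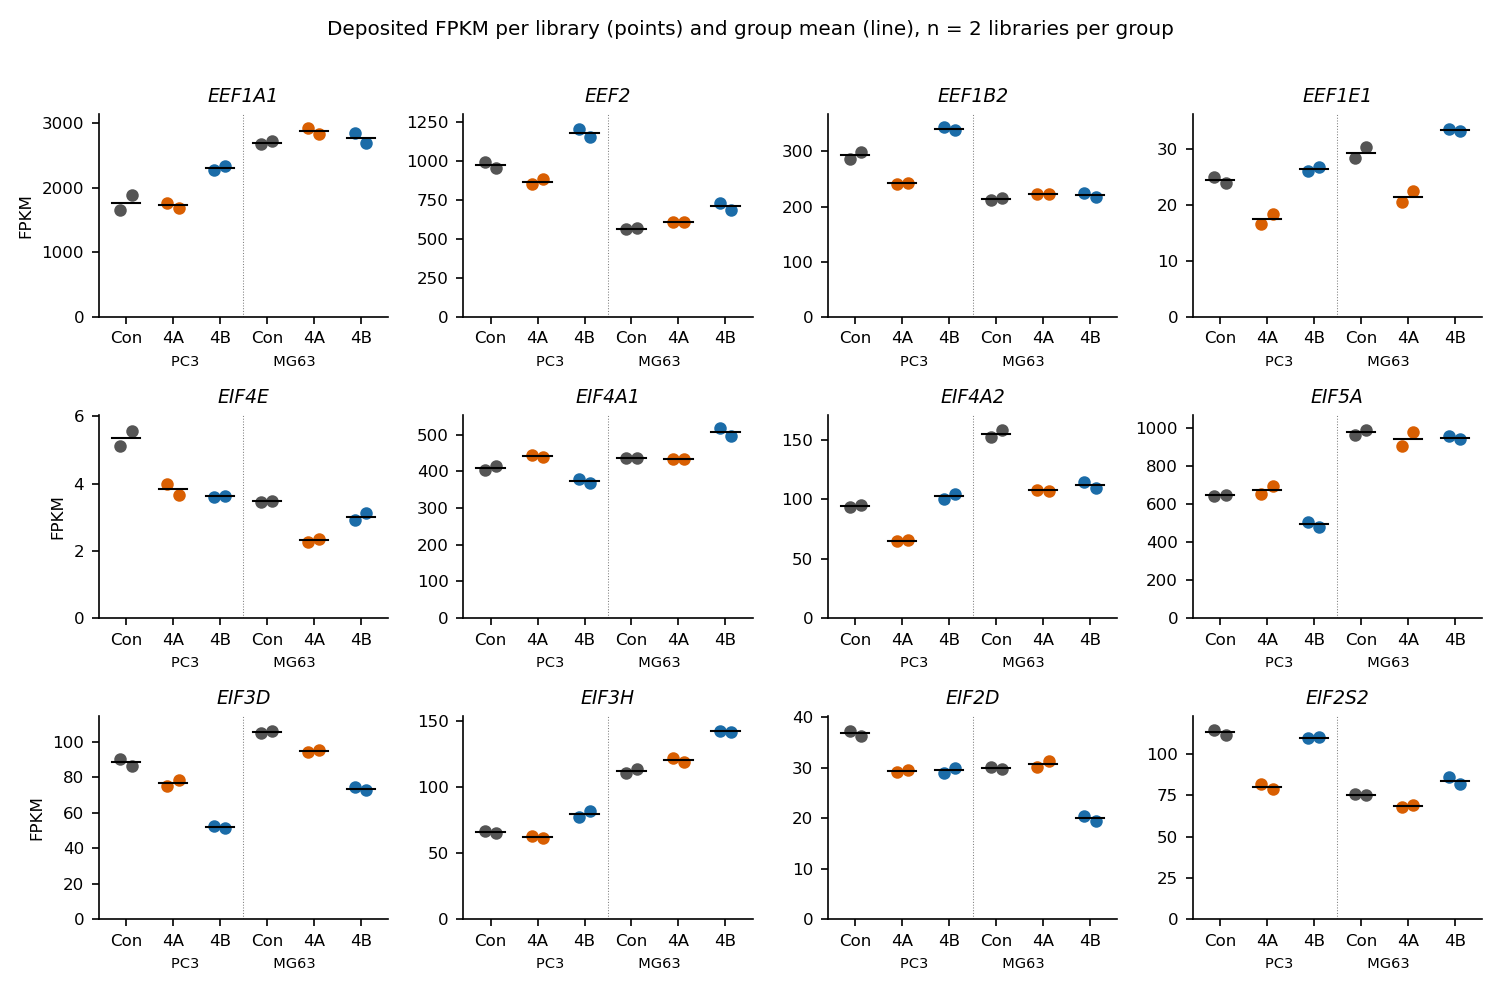
FPKM of 12 factors in each library (points) with the group mean of 2 libraries (line), for siControl (Con), siLARP4A (4A) and siLARP4B (4B) in PC3 (left of each panel) and MG63 (right), with every axis starting at 0. EIF3D steps down from siControl to siLARP4B in both lines, EEF1A1 is raised with siLARP4B in PC3, and EIF5A is lowered there.

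Of the 7 testable elongation factors, 4 rose and none fell with siLARP4B in PC3, while 4 fell and none rose with siLARP4A. Among all tested genes in PC3, 24.8% rose with siLARP4B and 16.9% fell with siLARP4A. In MG63, siLARP4B gave 3 higher and 1 lower (57.1% called, beside 34.9% of all genes). The 3 higher were EEF2, EEF1G and EEF1E1, and all 3 calls held together in 8 of 13 alternatives. EEF1E1, at 0.21 on the log2 scale, lost its call in 5 of 13. In the same line siLARP4A gave none higher and 2 lower (28.6% beside 26.8%). EEF1A1 stood in PC3 at 1654 and 1886 FPKM with siControl, 1766 and 1694 FPKM with siLARP4A and 2276 and 2345 FPKM with siLARP4B. In MG63 it stood at 2672 and 2724 FPKM, 2928 and 2830 FPKM, and 2850 and 2699 FPKM. The siLARP4B libraries of PC3 lay above all other PC3 libraries, and those of MG63 overlapped with both other groups. With siLARP4B the log2 fold change was 0.38 ± 0.04 in PC3 (edgeR adjusted p = 2.3e-07) and 0.06 ± 0.04 in MG63 (edgeR adjusted p = 0.32), and the lines differed by 0.32 ± 0.06 (edgeR adjusted p = 0.00042). With the deduplicated table of PC3 siControl replicate 2 the PC3 value was 0.77 and the difference between lines 0.70. In the GENCODE transcripts, EEF1A1 shares 33.7% of its 50-base words with other genes, mostly pseudogenes. EEF1A2, its paralogue of muscle and neurons, stood at 196 and 187 FPKM in PC3 siControl and at 94.98 and 95.9 FPKM in MG63 siControl. In MG63 it fell to 81.0 and 80.5 FPKM with siLARP4A and to 81.2 and 73.3 FPKM with siLARP4B (-0.24 ± 0.07 and -0.29 ± 0.07), and the siLARP4A call was lost without any 1 of the 4 libraries (-0.23 each, edgeR adjusted p up to 0.077).

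EEF2, which moves the ribosome by 1 codon, rose with siLARP4B in both lines. It stood in PC3 at 997 and 959 FPKM with siControl, 853 and 883 FPKM with siLARP4A and 1208 and 1157 FPKM with siLARP4B. In MG63 the values were 562 and 572 FPKM, 608 and 609.8 FPKM, and 731 and 689 FPKM. The log2 fold changes with siLARP4B were 0.27 ± 0.04 (edgeR adjusted p = 5.9e-06) and 0.34 ± 0.04 (edgeR adjusted p = 5.7e-07), and the test found no difference between the lines (-0.07 ± 0.05, edgeR adjusted p = 0.38). With siLARP4A EEF2 fell in PC3 (-0.15 ± 0.04, edgeR adjusted p = 0.0031) and was at 0.10 ± 0.04 in MG63 (edgeR adjusted p = 0.057), a difference of -0.26 ± 0.06 (edgeR adjusted p = 0.0035). The PC3 call was lost without siControl replicate 1 (-0.12, edgeR adjusted p = 0.058), and with the deduplicated table that value was -0.05 and the difference between lines -0.17 (edgeR adjusted p = 0.52). EEF2K, the kinase that inhibits EEF2, fell with siLARP4A in PC3 from 5.56 and 5.66 FPKM to 4.72 and 4.53 FPKM (-0.26 ± 0.06) and stood at 7.31 and 7.004 FPKM against 6.45 and 6.66 FPKM in MG63 (0.13 ± 0.06). The lines differed by -0.39 ± 0.09 (edgeR adjusted p = 0.0063).

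EEF1B2, EEF1G and EEF1D belong to the complex that recharges EEF1A with GTP. In PC3, EEF1B2 stood at 287 and 299.9 FPKM with siControl, 242 and 243 FPKM with siLARP4A and 344 and 339 FPKM with siLARP4B. The changes were -0.26 ± 0.04 (edgeR adjusted p = 6.3e-05) and 0.22 ± 0.04 (edgeR adjusted p = 0.00028), in opposite directions, and neither siRNA gave a call in MG63 (0.06 ± 0.04 for both). EEF1G rose with siLARP4B from 794 and 790.1 FPKM to 899.9 and 900.2 FPKM in PC3 and from 850.2 and 859.5 FPKM to 973 and 910 FPKM in MG63 (0.18 ± 0.04 and 0.16 ± 0.04). The PC3 value was 0.31 with the deduplicated table, and the MG63 call was lost without siLARP4B replicate 1 (0.11, edgeR adjusted p = 0.067). With siLARP4A in PC3 EEF1G was at 697 and 739 FPKM (-0.12 ± 0.04), which turned to 0.02 (edgeR adjusted p = 0.94) with the deduplicated table. In the GENCODE transcripts 98.7% of the 50-base words of EEF1G are shared, mostly with AP002990.1, and 56.8% of those of EEF1B2. AP002990.1 is not among the listed models that overlap EEF1G. How fragments that fit several genes were counted is not stated, so both levels are uncertain. EEF1E1, a scaffold of the multi-synthetase complex with an EEF1G-like fold, fell with siLARP4A in both lines. It went from 25.2 and 23.9 FPKM to 16.6 and 18.4 FPKM in PC3, and from 28.4 and 30.5 FPKM to 20.6 and 22.5 FPKM in MG63. The log2 fold changes were -0.48 ± 0.08 (edgeR adjusted p = 0.0001) and -0.45 ± 0.08 (edgeR adjusted p = 0.00022). EEFSEC, the selenocysteine factor, passed in none of the 4 comparisons.

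Of the 6 methyltransferases that modify EEF1A or EEF2, EEF1AKMT3 fell with siLARP4A in both lines. It stood at 5.32 and 5.48 FPKM with PC3 siControl against 3.57 and 3.56 FPKM, and at 4.24 and 4.15 FPKM with MG63 siControl against 3.28 and 3.03 FPKM. The changes were -0.58 ± 0.10 (edgeR adjusted p = 0.0001) and -0.41 ± 0.11 (edgeR adjusted p = 0.0079). The MG63 call was lost without siControl replicate 1 (-0.38, edgeR adjusted p = 0.062) or siLARP4A replicate 2 (-0.35, edgeR adjusted p = 0.097). EEF1AKMT2, singled out after its values were seen, was at 4.90 and 5.10 FPKM with PC3 siControl and 2.40 and 2.62 FPKM with siLARP4B (log2 -0.999 ± 0.10, edgeR adjusted p = 5.6e-08). In MG63 it was at 4.08 and 4.07 FPKM against 3.33 and 3.66 FPKM (-0.20 ± 0.10, edgeR adjusted p = 0.12), and the lines differed by -0.80 ± 0.14 (edgeR adjusted p = 0.00026). EEF1AKNMT and EEF2KMT rose with siLARP4B in MG63, both by 0.28 on the log2 scale, and EEF2KMT lost its call without siControl replicate 1 (0.23, edgeR adjusted p = 0.076). EEF1AKMT1 and EEF1AKMT4 passed in none of the 4 comparisons.

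With siLARP4A, 10 of the 60 factors passed in the same direction in both lines, 2 higher (EIF1 and EIF1AD) and 8 lower (EEF1AKMT3, EEF1E1, EIF1AX, EIF2S2, EIF3D, EIF4A2, EIF4A3 and EIF4E). These were 3.33% and 13.3% of the factors, beside 7.6% and 7.35% of all tested genes. EIF3J alone was called in both lines with opposite directions (1.67% of the factors and 1.26% of all genes). With siLARP4B, 6 factors rose in both lines (EEF1G, EEF2, EIF2B5, EIF3F, EIF3H and EIF4E2) and 6 fell in both (EIF2D, EIF2S3, EIF2S3B, EIF3D, EIF4E and EIF5A2), 10% each beside 8.38% and 8.58% of all genes. A further 6 factors went in opposite directions, 10% beside 3.36% of all genes. Of these, EIF1AX, EIF2B3, EIF2S1, EIF4A1 and EIF4A3 were lower in PC3 and higher in MG63, and EIF4A2 was the reverse. Several of these calls rest on a small change in 1 line, among them EIF2B5 in PC3 (0.17 ± 0.06, edgeR adjusted p = 0.04), which was lost in 10 of 14 alternatives.

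The test of the difference between lines called 7 factors for siLARP4A (2 higher and 5 lower in PC3 than in MG63), beside 11.2% of all tested genes (5.74% and 5.46%). For siLARP4B it called 25 factors, 5 higher and 20 lower in PC3 than in MG63, which is 41.7% beside 26.8% of all genes (12.4% and 14.4%). The median difference for siLARP4B was -0.17 on the log2 scale for the factors and 0.02 for all genes. The 3 largest siLARP4B differences among factors with at least 5 FPKM were those of EIF4A2, EIF4A3 and EIF1AX, and EEF1AKMT2 stood just under that level. For siLARP4A they were those of EEF2K, EIF3J and EIF2S2.

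**Figure D4:**
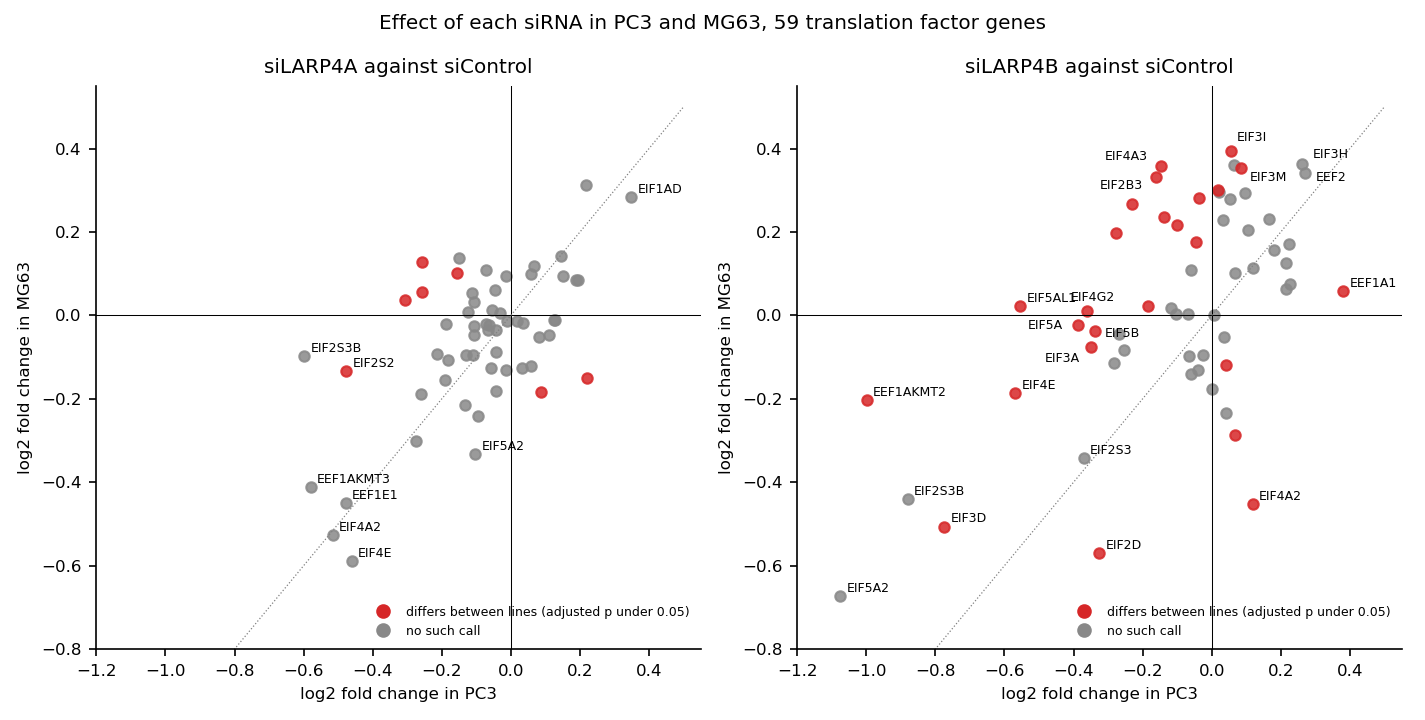
Log2 fold change in MG63 against that in PC3 for siLARP4A (left) and siLARP4B (right), 59 factors (EIF4E1B is not drawn), with a dotted line of equal change and red points where the difference between the lines has an edgeR adjusted p under 0.05. With siLARP4B most red points lie above the dotted line, and EIF4A2, EEF1A1 and EIF2D are among the few below it.

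The 2 siRNAs were also compared directly within each line, without the siControl libraries in the contrast. In PC3, 18 of the 60 factors were higher and 21 lower with siLARP4A than with siLARP4B (26.3% and 27.8% of all tested genes, 54.1% together). In MG63 9 were higher and 23 lower (21.6% and 22.2% of all genes, 43.8% together). In PC3, EIF4A2 was lower with siLARP4A than with siLARP4B by 0.63 (edgeR adjusted p = 1.7e-10), while EIF3D was higher by 0.58 ± 0.05 (edgeR adjusted p = 1.7e-09) and EIF5A2 by 0.97 ± 0.17 (edgeR adjusted p = 3.3e-05). In MG63, EIF2D was higher by 0.61 ± 0.06 (edgeR adjusted p = 4.6e-08) and EIF1AX and EIF4A3 stood at -0.57 ± 0.06 and -0.57 ± 0.05. EEF1E1 was lower with siLARP4A in both lines (-0.58 ± 0.08 and -0.66 ± 0.08). EIF4E differed between the siRNAs in MG63 (-0.40 ± 0.07, edgeR adjusted p = 0.00013) and was at 0.11 ± 0.07 in PC3 (edgeR adjusted p = 0.19).

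The factors long known as TOP mRNAs (EEF1A1, EEF1B2, EEF1D, EEF1G, EEF2, EIF3E, EIF3F, EIF3H and EIF4B) were counted as a list, with EEF1D not tested. In PC3, of the 8 tested, 6 rose and none fell with siLARP4B, and 5 fell and none rose with siLARP4A. That is 75% and 62.5% called, beside 45.7% and 36.4% of all tested genes. EEF1B2, EEF1G and EEF2 passed with both siRNAs. The median log2 fold changes of the 8 were 0.22 and -0.14, beside 0.04 and 0.03 for all tested genes. The 6 that rose were EEF1A1, EEF1B2, EEF1G, EEF2, EIF3F and EIF3H, and these calls held in all 14 alternatives. The 5 that fell were EEF1B2, EEF1G, EEF2, EIF3E and EIF4B. EEF1G and EEF2 lost the siLARP4A call without PC3 siControl replicate 1 (edgeR adjusted p = 0.1 and 0.058) and with the deduplicated table, which each left 3 of the 5. All 8 were lower with siLARP4A than with siLARP4B, beside 27.8% of all tested genes, by a median of -0.32 against -0.01 for all genes. With the 4 libraries of that contrast fitted alone, 7 of the 8 stayed called. EIF3E lost its call without siLARP4A replicate 2 or siLARP4B replicate 1. In MG63 siLARP4A gave no call among the 8, and siLARP4B gave 4 higher and 1 lower, with a median of 0.09. All tested genes had 26.8% called with siLARP4A there and 34.9% with siLARP4B, beside 62.5% of the 8 with siLARP4B. The 4 higher were EEF1G, EEF2, EIF3F and EIF3H, and all 4 calls held together in 5 of 13 alternatives. The 1 lower, EIF4B (-0.12), held in 9 of 13.

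EIF3E stood at 166 and 171 FPKM with PC3 siControl and at 149 and 138 FPKM with siLARP4A (-0.21 ± 0.04, edgeR adjusted p = 0.00062). EIF4B, which stimulates the eIF4A helicase, stood at 152 and 158 FPKM against 138 and 132 FPKM (-0.19 ± 0.04, edgeR adjusted p = 0.001). EIF3F rose with siLARP4B in PC3 from 23.3 and 23.9 FPKM to 27.7 and 27.1 FPKM (0.22 ± 0.05, edgeR adjusted p = 0.00063). The other 52 tested factors had 4 higher and 20 lower with siLARP4B in PC3, with a median of -0.06. The sequence at the start base gave a different grouping from this list. Of the 12 factors with a run at the listed start, 4 rose and 4 fell with siLARP4B in PC3, and none rose and 6 fell with siLARP4A. Of the 38 tested factors matched to a start without a run, 4 rose and 15 fell with siLARP4B and 5 rose and 8 fell with siLARP4A, beside the shares of all genes given above (24.8% and 20.9%, and 19.5% and 16.9%). EIF3D, EIF2D, EIF2S3 and EIF2S3B had the run and fell with siLARP4B in PC3, and EEF1B2 and EEF1G had none at the listed base and rose. In MG63 with siLARP4B, 4 rose and 6 fell with a run, and 14 rose and 3 fell without. With siLARP4A there, none rose and 2 fell with a run, and 2 rose and 8 fell without. The shares of all genes in MG63 were 18% higher and 16.9% lower with siLARP4B, and 13.3% and 13.5% with siLARP4A.

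**Figure D5:**
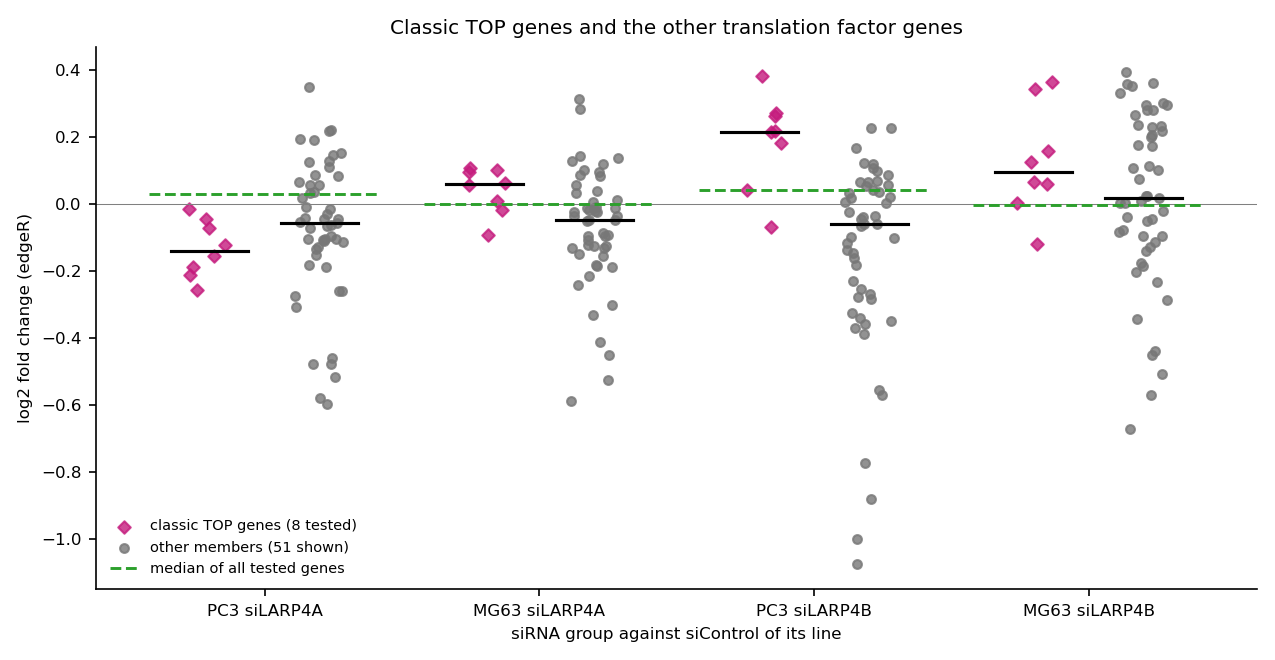
Log2 fold change of the 8 tested classic TOP factors (diamonds) and 51 other factors (circles) for each siRNA against siControl of its line, with the median of each set as a black bar and that of all tested genes as a dashed line. In PC3 the diamonds lie at or below 0 with siLARP4A and mostly above 0 with siLARP4B, while in MG63 the sets overlap.

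The 3 factors at several loci had few usable fragments for genes of their class. EIF3C and EIF3CL, near-identical copies of an eIF3 core subunit that share 96.8% and 98.7% of their 50-base words, ranged from 5.80 to 19.9 FPKM and from 5.97 to 20.5 FPKM over the 12 libraries. In PC3 siControl, EIF3C was at 5.80 and 11.8 FPKM, so the 2 libraries of 1 group stood far apart. When genes at several loci were kept, EIF3C was 0.81 ± 0.26 higher with siLARP4A in PC3 (edgeR adjusted p = 0.026). The part of that library in the value was not tested. EEF1D was listed on chromosome 8 and on an alternate contig, at 2.06 to 4.31 FPKM in PC3 and 6.92 to 21.7 FPKM in MG63, and passed in none of the 4 comparisons with siControl.

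Other genes of the pathway that the name rule leaves out were read from a list of regulators, modifying enzymes, termination, selenocysteine and mitochondrial factors, all 48 of which were tested. With siLARP4A 16 rose and 9 fell in PC3 (52.1%, beside 36.4% of all tested genes) and 10 rose and 7 fell in MG63 (35.4% beside 26.8%). With siLARP4B 9 rose and 14 fell in PC3 (47.9% beside 45.7%) and 11 rose and 10 fell in MG63 (43.8% beside 34.9%). Their median log2 fold changes were 0.03, 0.00, -0.06 and 0.01 in that order. The genes named below were picked from the 48 without a set rule. Their calls, unlike those of the factors, were not tried under the alternatives. EIF4EBP2, a repressor that sequesters the cap-binding protein, rose in all 4 comparisons, by 0.61 and 0.53 with siLARP4A and by 0.37 and 0.40 with siLARP4B in PC3 and MG63. MKNK2, a kinase that phosphorylates the cap-binding protein, rose with siLARP4A (0.49 ± 0.06 and 0.89 ± 0.06) and fell with siLARP4B (-1.35 ± 0.06 and -1.38 ± 0.08). EIF2AK3, the eIF2 kinase of the endoplasmic reticulum, rose with siLARP4A in both lines (0.44 ± 0.09 and 0.51 ± 0.09). PPP1R15B, which directs the dephosphorylation of eIF2, also rose with siLARP4A (0.44 ± 0.05 and 0.36 ± 0.06) and fell with siLARP4B in PC3 (-0.38 ± 0.06). RPS6KB1, a kinase under mTOR, fell with siLARP4B in both lines (-0.56 ± 0.06 and -0.58 ± 0.07), and MTOR passed in none. DHPS, the first enzyme of hypusine synthesis, fell with siLARP4A in both lines (-0.33 ± 0.06 and -0.30 ± 0.06). LARP1, the TOP regulator, was lower with siLARP4A in PC3 (-0.24 ± 0.05) and higher with siLARP4B in MG63 (0.19 ± 0.05).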

How the data were processed

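Poly(A) RNA sequencing of 12 libraries (2 per group) was read from the deposited tables, which list transcript models. The submitters' processing notes name FastQC, HISAT2, featureCounts, edgeR and hg38, without versions or roles. The annotation and the use of strand are not given in the sources used here. Per the file headers, each table gives fragment counts, a depth-scaled signal (FPM) and FPKM, all made by the authors. Where models overlap, the same fragment adds to the count of every one of them.

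For each gene the most counted model, by its sum over 12 libraries, was used. The 1814 symbols at several loci were left out, which left 26464. The edgeR 4.0.16 quasi-likelihood test (R 4.3.3, TMM scaling, filterByExpr, two-sided, all 12 libraries in 1 fit) kept 15682 genes, and p-values were adjusted by Benjamini-Hochberg over these with a threshold of 0.05. The residual degrees of freedom were 6 and the biological coefficient of variation 4.22%. The script was tested on simulated data. FPKM values are printed as deposited, and SE is the standard error of the fitted log2 fold change. Shared 50-base words were counted among GENCODE transcripts, a reference annotation, and not among the deposited models. Alternatives used DESeq2 1.42.0, limma 3.58.1 on log2(FPKM + 1), other filters and models, and each library left out. A further alternative put the deduplicated table of PC3 siControl replicate 2 in place of its main table, with the other libraries unchanged.

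Members were picked for naming by a rule. For each siRNA against siControl in a line, it took the 4 highest and 4 lowest log2 fold changes among called members. These had to average at least 5 FPKM in either group. The rule also took the 3 largest line differences per siRNA with that average in any group. Of members called alike in both lines, it took the 3 largest in each direction. Always included were EEF1A1, EEF1A2, EEF2, EIF2S1, EIF4A1, EIF4A2, EIF4E, EIF4G1, EIF5A and EIF5A2. Not all picked members, for example EIF1AD, are printed with every library. Other members were named after their values were seen. The members, the TOP list and the pathway lists were chosen with earlier results of these data known.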

Additional observations from a re-analysis of the deposited data

Results flagged for a closer look

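These factors differed between PC3 and MG63 in their response to the same siRNA by the edgeR interaction test (adjusted p under 0.05). Each value is the log2 fold change in PC3 minus that in MG63. No group was large enough to test for single outlying libraries.

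For siLARP4A the differences were -0.39 for EEF2K, -0.34 for EIF2S2, -0.34 for EIF2D, -0.31 for EEF1B2, -0.26 for EEF2, 0.27 for EIF5B and 0.37 for EIF3J. The EIF5B difference was lost in 13 of 17 alternatives.

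For siLARP4B the start codon, initiator tRNA and eIF2B genes gave -0.50 for EIF1AX, -0.49 for EIF2B3, -0.47 for EIF2S1, -0.30 for EIF5B, -0.22 for EIF2S2 and 0.24 for EIF2D. The eIF3 genes gave -0.34 for EIF3I, -0.32 for EIF3B, -0.28 for EIF3K, -0.27 for EIF3A, -0.27 for EIF3D and -0.27 for EIF3M. The eIF4F genes gave -0.38 for EIF4E, -0.37 for EIF4A1, -0.37 for EIF4G2, -0.21 for EIF4H, 0.16 for EIF4B and 0.57 for EIF4A2, and EIF4A3 gave -0.51. The eIF5A genes gave -0.37 for EIF5A and -0.58 for EIF5AL1. The elongation factors and their modifiers gave 0.32 for EEF1A1, 0.35 for EEF1A2, -0.80 for EEF1AKMT2 and -0.32 for EEF1AKNMT. The differences of EIF2D and EIF4B were each lost in 14 of 17 alternatives.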

How the results depend on the processing

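Of 203 called values of single factors, 137 stayed called in the same direction in every alternative run. Over 2799 alternative values 271 lost the call and 1 reversed, EEF1G with siLARP4A in PC3, which was 0.015 with the deduplicated table of PC3 siControl replicate 2 against -0.12. That run replaced the table of this 1 library only, so deduplicated fragments were set beside libraries that were not deduplicated. The cause of the shift was not tested. The count of factors called for siLARP4A in MG63 went from 15 to 26 when the 4 libraries of the contrast were fitted alone, and the siLARP4A difference between lines from 7 to 12 without an expression filter. The split of the 15 MG63 calls (2 higher and 13 lower) was 8 and 8 among genes averaging 5 FPKM or more, 4 and 11 with DESeq2 size factors, 3 and 9 with DESeq2, 6 and 11 without a filter and 9 and 17 with 4 libraries.

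With 1 library left out, which assumes that the lone library varies like the other groups, the counts ranged from 15 to 30 for siLARP4A in PC3 (main 23), 24 to 28 for siLARP4B in PC3 (30), 7 to 8 for siLARP4A in MG63 (15) and 23 to 27 for siLARP4B in MG63 (32). They ranged from 31 to 42 (39) and 27 to 30 (32) between the siRNAs in PC3 and MG63, 6 to 10 (7) and 22 to 25 (25) for the siLARP4A and siLARP4B line differences, and 48 to 49 (50) between the siControl groups. The lowest PC3 siLARP4A count came without PC3 siControl replicate 1, and in MG63 leaving out any of the 4 libraries gave 7 or 8.

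With the replicate number as a replicate block, the 4 counts against siControl were 21 and 27 in PC3 and 14 and 30 in MG63. Same-numbered libraries deviated together with r from -0.185 to 0.0922 over 8292 genes. The labels do not say what the numbers mean, and weak correlations cannot settle whether same-numbered libraries shared a culture or a day. The depth of 16950119 to 24864977 fragments limits factors at a few FPKM or less, such as EIF5A2, EIF4E3 and EIF4E1B.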
